A study of Homo sapiens with 9 samples.

Results

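The genes U2AF1, U2AF1L5, CBS, CBSL, EIF3C, EIF3CL, BOLA2B, GATD3B and LOC102724200 each have a near-identical copy elsewhere in the human reference genome. Their read counts were examined in KGN cells, a human granulosa cell tumour line. These 9 rows, of 15983 in the table, were picked by symbol after their counts had been seen to vary between libraries, so their own spread and fold changes describe them and carry no test. All 9 were among the 12665 genes with enough counts to be tested. They form 6 sets of copies, in which the missing partner was GATD3A for GATD3B, TRAPPC10 for LOC102724200, and BOLA2-SMG1P6, a read-through gene over the BOLA2 locus, for BOLA2B. All cells were of 1 line, and fasting lasted 12 h. Solvent (control), 0.5 µg/ml insulin (low dose) or 1 µg/ml insulin (high dose) was then present for 72 h, with 3 libraries for each. The culture medium contained fetal bovine serum in every group.

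A reference genome can hold pairs of genes whose transcripts are almost the same letter for letter, and a short read from the shared stretch fits both copies equally well. Read counters differ in how they treat such a read: it can be dropped, placed on 1 copy or divided. The sources used here do not state how such reads were treated in this table. The proteins are varied. U2AF1 is the small subunit of the factor that reads the AG at the end of an intron, and U2AF1L5 is its copy. CBS is cystathionine beta-synthase, which joins homocysteine and serine in the transsulfuration pathway. EIF3C is a core subunit of the translation initiation factor eIF3, BOLA2 acts with monothiol glutaredoxins in iron-sulfur and iron handling, GATD3A is a mitochondrial protein with a glutamine amidotransferase-like fold, and TRAPPC10 is a subunit of the TRAPP II complex of Golgi traffic.

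Library totals lay between 18965722 and 20446405 counts, so depth was nearly the same in all 9. The granulosa markers were detected, with all 10 of 10 passing the count filter and FOXL2 at 26.2 ± 2.0 CPM (counts scaled to the library's size, SD over 9 libraries), although INHA was at 0.656 ± 0.267 CPM and HSD17B1 at 0.729 ± 0.153 CPM. The theca genes CYP17A1, LHCGR and INSL3 had 1 count each in all libraries together. Of the markers of other cell types, PTPRC (blood, 1.79 ± 0.65 CPM), VWF (endothelial, 1.27 ± 0.32) and CDH1 (epithelial, 4.99 ± 0.79) passed the count filter. HBB, PECAM1 and EPCAM did not. Within a group, pairs of libraries differed by 2.17 to 8.19 times the counting noise (chi-square per degree of freedom, 9 pairs), so no library was a repeat of another. The labels do not say that replicates came from separate cultures, so a p-value here reflects variation among these libraries that may be purely technical. In bulk RNA, fewer cells of a type and less RNA per cell cannot be told apart.

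The sequences show how little a read has to tell the copies apart. Transcripts were taken from GENCODE 29 on GRCh38, the hg38 build that the submitters' processing notes name, and the pair of coding transcripts with the closest match was aligned for each set. Those of U2AF1 (962 bases) and U2AF1L5 (897 bases) had 0 substitutions over 897 aligned bases, and the 65 bases that only U2AF1 has lie at the ends. Those of BOLA2 and BOLA2B were identical over all 1012 bases. Those of CBS and CBSL differed at 1 of 2563 aligned bases, C937T, counted from 1 at the 5′ end of the CBS transcript. Those of EIF3C and EIF3CL had 0 substitutions over 3082 aligned bases and 3 extra coding bases in EIF3CL. Those of GATD3A and GATD3B differed at T110C in the coding sequence and C1542T in the 3′ UTR, over 1640 aligned bases.

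The first 60 coding bases of U2AF1 and of U2AF1L5 are shown because no base differs between them, start codon in capitals (GRCh38 chr21:43104387-43107494 and chr21:6496065-6499172, both minus strand, exons 1 to 2).
U2AF1: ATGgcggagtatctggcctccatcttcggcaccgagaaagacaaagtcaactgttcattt
U2AF1L5: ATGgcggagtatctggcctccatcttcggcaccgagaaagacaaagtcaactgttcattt
Around C937T, the differing base is in capitals (coding sequence, exon 8 of each transcript, chr21:43065210-43065270 and chr21:6456888-6456948, both minus strand).
CBS: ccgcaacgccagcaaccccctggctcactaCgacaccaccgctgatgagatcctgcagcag
CBSL: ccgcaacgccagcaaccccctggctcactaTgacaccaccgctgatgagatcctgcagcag
For EIF3CL the added codon is in capitals. It lies in a run of GAG codons, so its place within the run is arbitrary (coding sequence, exon 9 of each transcript, chr16:28723228-28723287 on the plus strand and chr16:28392016-28392078 on the minus strand).
EIF3C: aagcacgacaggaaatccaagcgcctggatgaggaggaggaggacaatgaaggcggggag
EIF3CL: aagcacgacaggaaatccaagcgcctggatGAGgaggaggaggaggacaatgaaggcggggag

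The GATD3 pair and the TRAPPC10 pair hold more sites that differ. T110C of the GATD3 pair is in exon 1 (chr21:44133684-44133744 on the plus strand and chr21:5128308-5128368 on the minus strand), with the differing base in capitals.
GATD3A: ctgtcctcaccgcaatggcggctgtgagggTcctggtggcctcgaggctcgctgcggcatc
GATD3B: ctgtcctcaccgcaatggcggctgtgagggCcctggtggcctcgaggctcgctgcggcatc
LOC102724200 lies in RefSeq at chr21:5155774-5165464, within the GENCODE gene FP565260.6, whose transcript of 3634 bases matched TRAPPC10 over 3633 aligned bases. It differed at G6228A, A6442G and C6619T and by 1 extra base, all in the 3′ UTR of TRAPPC10 by that gene's own annotation. The first of these is shown with the differing base in capitals (exon 23 of TRAPPC10, chr21:44105790-44105818 on the plus strand, and exon 3 of the copy, chr21:5156234-5156262 on the minus strand).
TRAPPC10: tgcaatgtgtatctGaaaagcaaggaatt
FP565260.6: tgcaatgtgtatctAaaaagcaaggaatt

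Counted in words of 100 bases from each gene's main coding transcript, 798 of 798 words of U2AF1L5 occurred in U2AF1, and 29 of 863 words of U2AF1 did not occur in U2AF1L5. CBSL had 100 words of its own among 1893, CBS 191 among 2506, EIF3CL 88 among 2986 and EIF3C 148 among 3046. BOLA2B had 0 words that BOLA2 lacks, of 913, but 55.3% of its words were in BOLA2-SMG1P6, the row it could be summed with. GATD3B had 188 words of its own among 1541, relative to GATD3A. TRAPPC10 stood apart with 3650 of 6877 words absent from its copy, whereas the copy had 308 of 3535. The 4 copies on chromosome 21 (U2AF1L5, CBSL, GATD3B and LOC102724200) all lie between bases 5079294 and 6499261, and their 4 partners all lie between 43053191 and 44210114 of the same chromosome. EIF3C and EIF3CL, and BOLA2 and BOLA2B, lie on chromosome 16. These positions are those of the reference, and whether the cells carry both copies of each set was not tested.

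U2AF1 and U2AF1L5 were each low in most libraries and far higher in a few, and the few were not the same. U2AF1 had 23, 19 and 29 counts in controls 1 to 3, 540, 19 and 26 in low-dose libraries 1 to 3, and 196, 124 and 35 in high-dose libraries 1 to 3. U2AF1L5 had 10, 343 and 11 counts in the controls, 11, 12 and 29 at the low dose, and 8, 15 and 9 at the high dose. Low-dose library 1 held the most U2AF1 and control 2 held the most U2AF1L5, and neither was unusual for the other copy. A library was called raised for a gene when it exceeded 1.5 times that gene's median CPM over the 9 libraries, which any library did in 4.81% of the tested genes (609 of 12665). By that measure U2AF1 was raised in 3 libraries and U2AF1L5 in 2, with 0 in common.

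The pair's total did not settle to 1 level. U2AF1 plus U2AF1L5 gave 33, 362 and 40 counts in the controls, 551, 31 and 55 at the low dose, and 204, 139 and 44 at the high dose. Of the 9 libraries, 5 lay between 31 and 55 counts and 4 between 139 and 551, with each group divided between the lower and the higher libraries. The share of the total that fell on U2AF1L5 ran from 2.0% in low-dose library 1 (exact 95% binomial interval 1.00 to 3.54%) to 94.8% in control 2 (91.9 to 96.8%), and was 52.7% in low-dose library 3 (38.8 to 66.3%). These intervals cover counting error only.

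**Figure D1:**
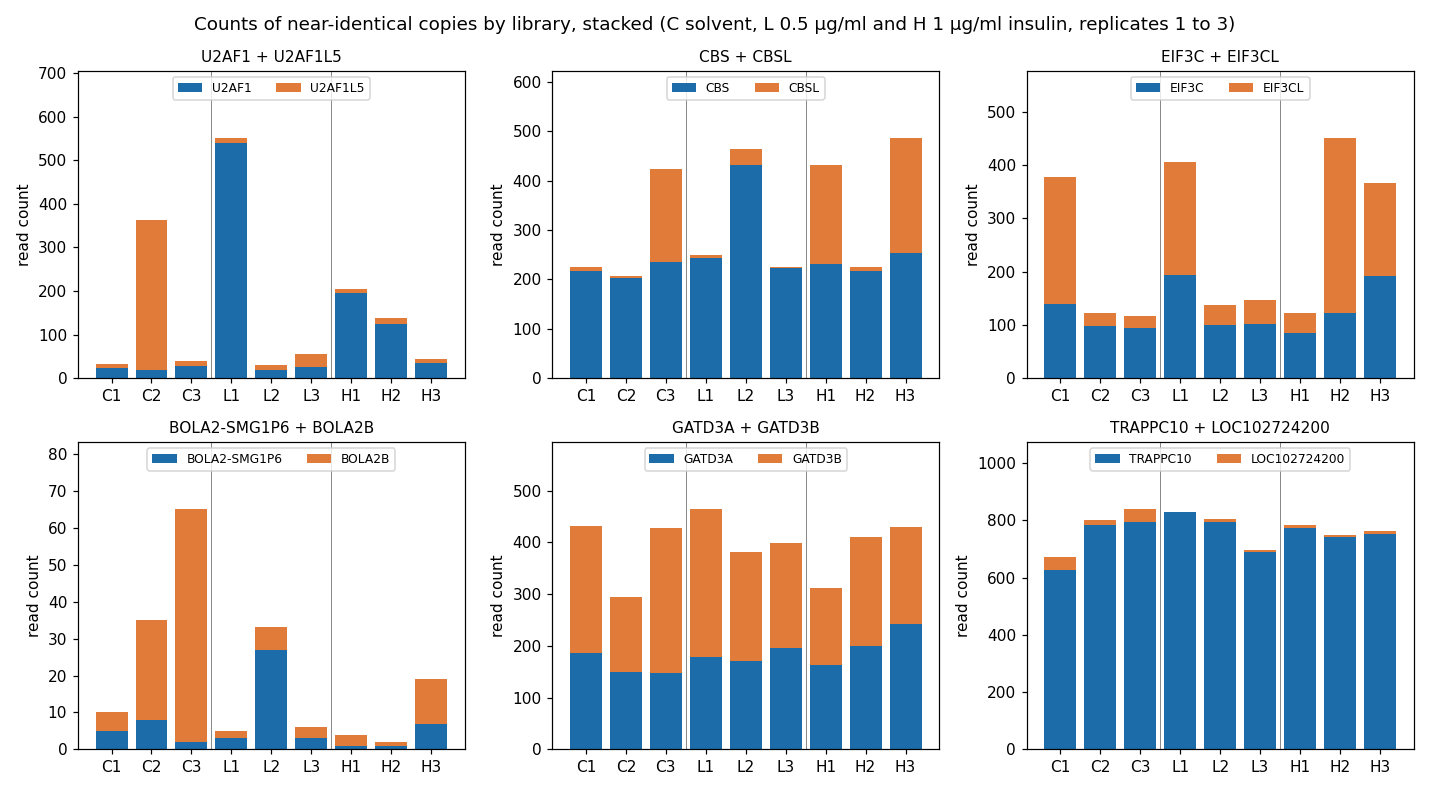
Read counts of the copies of each of the 6 sets, stacked by copy, in 9 libraries (C control, L 0.5 µg/ml insulin, H 1 µg/ml insulin, replicates 1 to 3; the vertical scale differs between panels). U2AF1, CBS and EIF3C sets each show 4 tall libraries, which differ from set to set, while the TRAPPC10 set stays between 671 and 839 counts.

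CBS itself was nearly level, and CBSL switched between a few counts and about as many as CBS. CBS had 217, 202 and 236 counts in the controls, 243, 431 and 223 at the low dose, and 231, 216 and 253 at the high dose. CBSL had 7, 4 and 188 counts in the controls, 6, 32 and 1 at the low dose, and 200, 8 and 233 at the high dose. Only low-dose library 2 was raised for CBS, at 431 counts. CBSL was raised in that library too, at 32 counts, and in control 3 and high-dose libraries 1 and 3. In those last 3 libraries CBSL took 44.3%, 46.4% and 47.9% of the pair's counts, and in the other 6 it took 0.446 to 6.91%.

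Summed, the 2 CBS rows gave 224, 206 and 424 counts in the controls, 249, 463 and 224 at the low dose, and 431, 224 and 486 at the high dose. Of the libraries, 5 lay between 206 and 249 counts and 4 between 424 and 486. No library fell between 249 and 424, a gap of 1.70 times, and each group had libraries on both sides of it.

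EIF3C was highest in libraries where EIF3CL was high too. EIF3C had 139, 98 and 95 counts in the controls, 193, 99 and 101 at the low dose, and 84, 123 and 191 at the high dose. EIF3CL had 238, 25 and 22 counts in the controls, 213, 39 and 46 at the low dose, and 38, 328 and 176 at the high dose. EIF3C was raised in low-dose library 1 and high-dose library 3, and EIF3CL was raised in both of these and also in control 1 and high-dose library 2. EIF3CL took from 18.8% of the pair's counts in control 3 (exact 95% binomial interval 12.2 to 27.1%) to 72.7% in high-dose library 2 (68.4 to 76.8%). The pair summed to 377, 123 and 117 counts in the controls, 406, 138 and 147 at the low dose, and 122, 451 and 367 at the high dose, again with 5 libraries low (117 to 147) and 4 high (367 to 451).

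Each of the U2AF1, CBS and EIF3C sets was raised in 1 control, 1 low-dose and 2 high-dose libraries, and the libraries differed. The U2AF1 set was raised in control 2, low-dose 1 and high-dose 1 and 2. For the CBS set these were control 3, low-dose 2 and high-dose 1 and 3, and for the EIF3C set control 1, low-dose 1 and high-dose 2 and 3. Low-dose library 3 was raised for none of the 3 sums. No library was therefore high for all 3 sets, although total depth was nearly even.

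BOLA2B, a copy of the BolA-family gene BOLA2, was low throughout and highest in 2 controls. It had 5, 27 and 63 counts in the controls, 2, 6 and 3 at the low dose, and 3, 1 and 12 at the high dose. Control 1, at 5 counts, lay within the range of the insulin libraries, so the groups overlapped. The read-through row BOLA2-SMG1P6 had 5, 8 and 2 counts in the controls, 3, 27 and 3 at the low dose, and 1, 1 and 7 at the high dose. Both rows were raised in control 2 and high-dose library 3, while the 27 counts of BOLA2-SMG1P6 in low-dose library 2 stood beside 6 in BOLA2B and the 63 of BOLA2B in control 3 beside 2 in BOLA2-SMG1P6. Together the rows gave 10, 35 and 65 counts, then 5, 33 and 6, then 4, 2 and 19. A count of 3 in the smallest library is 0.158 CPM, so several of these values are near the floor of detection.

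GATD3B and its partner were the steadiest of the pairs that share most of their sequence. GATD3B had 245, 145 and 280 counts in the controls, 286, 212 and 203 at the low dose, and 148, 211 and 187 at the high dose. GATD3A had 187, 150 and 148 counts in the controls, 178, 170 and 195 at the low dose, and 163, 200 and 243 at the high dose. Neither was raised in any library, and GATD3B took 43.5 to 65.4% of the pair's counts. The sum lay between 295 (control 2) and 464 (low-dose library 1), with all groups overlapping.

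LOC102724200 was the only member of the 9 with both insulin groups apart from the controls. It had 44, 19 and 46 counts in the controls, 3, 12 and 8 at the low dose, and 10, 7 and 11 at the high dose. Every control was above every insulin library, and the 2 insulin groups overlapped. Of all tested genes, 5.61% separated downwards from the controls at the low dose and 3.92% at the high dose. The share that did so at both doses was not computed. TRAPPC10, the complete gene, had 627, 783 and 793 counts in the controls, 828, 793 and 690 at the low dose, and 774, 742 and 752 at the high dose, with no library raised. LOC102724200 made up 6.56% of the pair's counts in control 1 (exact 95% binomial interval 4.80 to 8.70%) and 0.361% in low-dose library 1 (0.0745 to 1.05%), where its 3 counts are at the floor. The sum of both rows lay between 671 and 839 counts, with all groups overlapping.

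**Figure D2:**
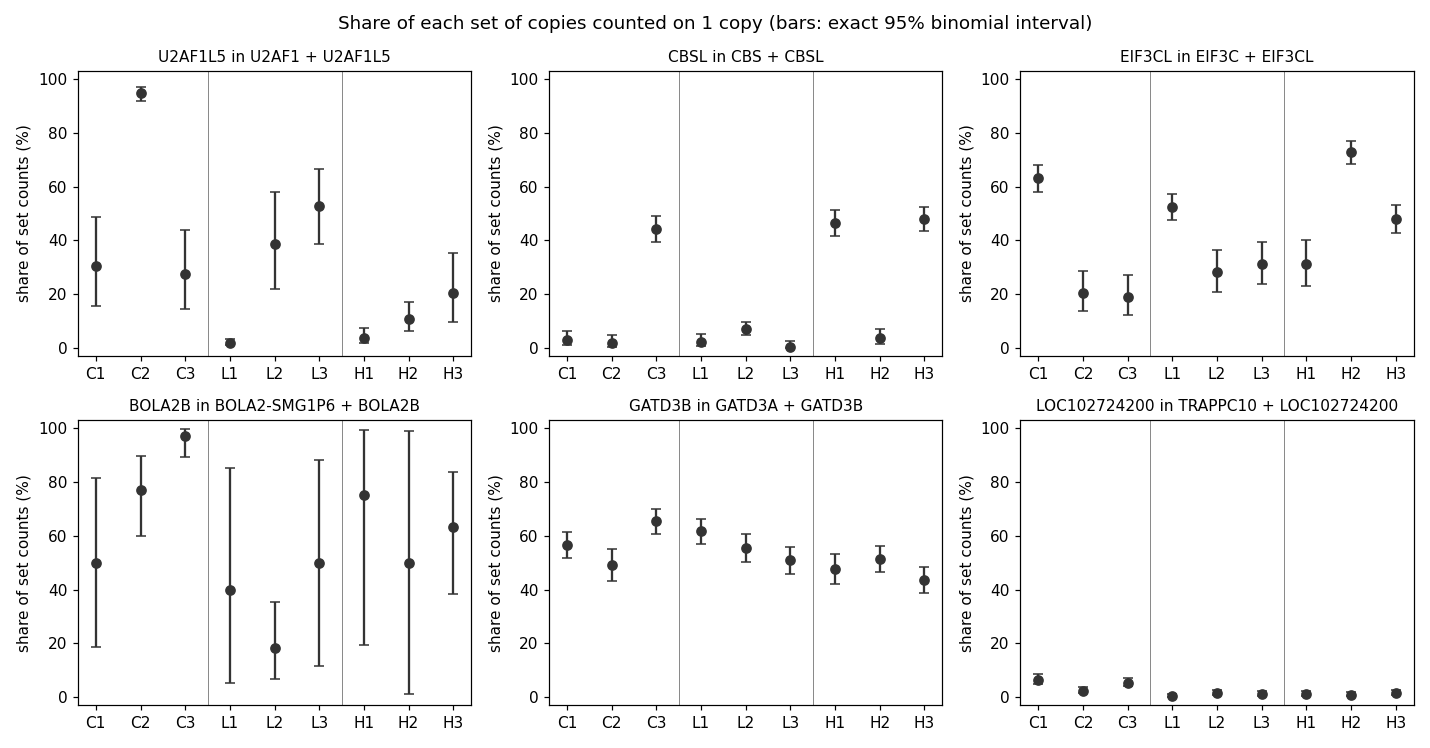
Share (%) of each set's counts that fell on the named copy in each of 9 libraries, with exact 95% binomial intervals as bars (C control, L 0.5 µg/ml insulin, H 1 µg/ml insulin). U2AF1L5 covers 2.0 to 94.8%, CBSL is near 0 or between 44.3 and 47.9%, and LOC102724200 stays at or below 6.56%.

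Spread between libraries was measured as the SD of log2 CPM around the group means, and its median over all 12665 tested genes was 0.0958. CBSL, at 2.38, had the widest spread of any tested gene. U2AF1 was at 1.67, U2AF1L5 at 1.65, EIF3CL at 1.62 and BOLA2B at 1.16, all above the 99.9th percentile. LOC102724200 was at 0.62 (99.0th percentile), EIF3C at 0.50 (97.7th), GATD3B at 0.36 (94.5th) and CBS at 0.33 (92.9th). Of the partners, TRAPPC10 was at 0.12 (64th percentile). Low counts widen the spread of any gene. The biological coefficient of variation that edgeR estimated was therefore set against its trend at the same level: it was 13.1 times the trend for CBSL, 11.4 times for EIF3CL, 11.0 times for U2AF1, 3.27 times for CBS, 3.23 times for GATD3B, 2.58 times for LOC102724200 and 1.36 times for TRAPPC10.

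For the U2AF1, CBS, EIF3C and BOLA2 sets, adding the copies did not bring the spread down to that of most other genes. The summed U2AF1 set had an SD of 1.77, wider than either copy, and a coefficient of variation 13.5 times the trend. The CBS set had an SD of 0.57 and the EIF3C set 0.96, in each case narrower than the copy with the wider spread and wider than the other. Relative to the trend they were at 6.01 and 8.86 times. Only the TRAPPC10 set, at 0.11, was narrower than both of its rows.

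The variance of a sum equals the added variances of its parts when these vary independently, is smaller when one is low where the other is high, and is larger when they are high together. These variances were taken in CPM over all libraries, and differences between the groups were not removed. The variance of the sum was 0.806 times the added variances for the U2AF1 set, 0.955 times for the CBS set, 0.922 times for the BOLA2 set, 0.996 times for the GATD3 set and 0.801 times for the TRAPPC10 set. It was 1.41 times for the EIF3C set, in which EIF3C was raised only where EIF3CL was. What moved the totals was not tested.

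**Figure D3:**
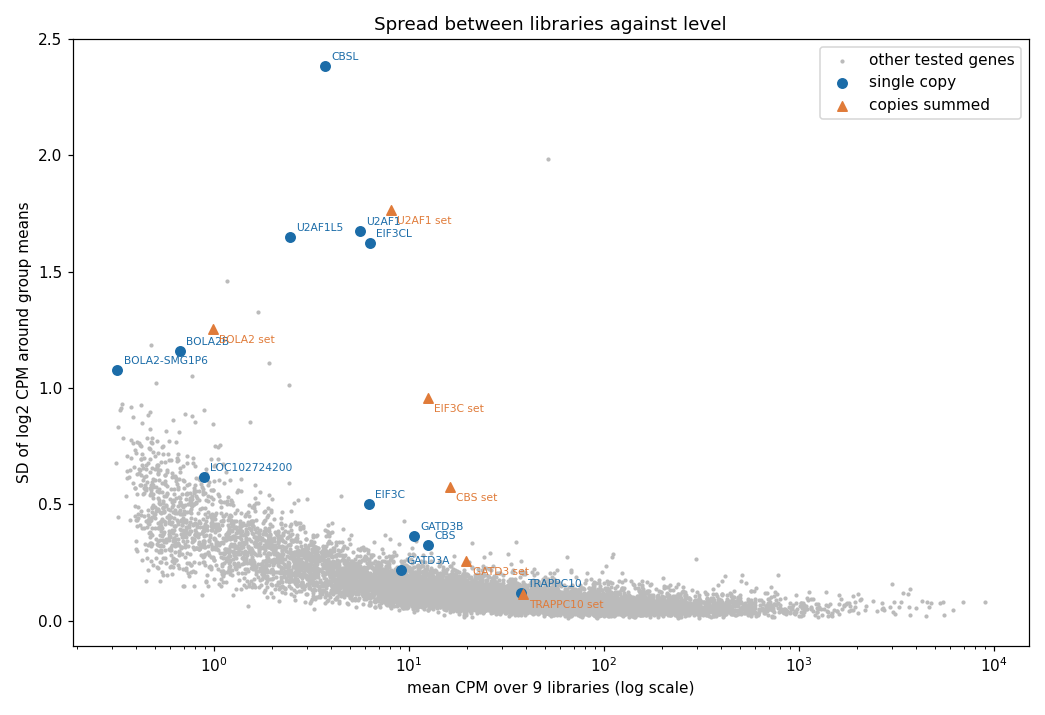
SD of log2 CPM around the group means against mean CPM (log scale) for all tested genes (grey), the copies (blue circles) and the sums (orange triangles). CBSL sits highest at 2.38, the U2AF1, CBS and EIF3C sums stay above the grey cloud at their level, and TRAPPC10 lies within it.

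Read against insulin, the single rows gave large estimates in opposite directions for 2 copies with the same sequence. At the low dose against control, U2AF1 had 9.80 ± 15 CPM against 1.19 ± 0.238 (SD, n = 3), a log2 fold change of 3.04 ± 0.91 (SE), and U2AF1L5 had 0.866 ± 0.488 against 6.0 ± 9.47 CPM, a log2 fold change of -2.79 ± 0.87. Without low-dose library 1 the U2AF1 estimate was -0.07, and without control 2 the U2AF1L5 estimate was 0.70. At the high dose against control U2AF1L5 was at -3.49 ± 0.95, and at -0.01 without control 2. U2AF1 at the high dose was at 2.30 ± 0.97, with 5.90 ± 4.05 CPM, and all 3 libraries lay above all 3 controls. Such a separation upwards occurred in 3.81% of the tested genes in that comparison.

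CBSL had a log2 fold change of -2.32 ± 1.15 at the low dose and 1.15 ± 0.79 at the high dose against control, which became 1.20 and 4.67 without control 3. EIF3CL was at 0.04 ± 0.74 and 0.88 ± 0.69, which became 2.11 and 2.95 without control 1. CBS was at 0.46 ± 0.18 at the low dose and at 0.08 without low-dose library 2, and EIF3C was at 0.24 ± 0.27 at either dose. In these 4 genes the groups overlapped in each comparison. Both doses were compared with the same 3 controls, so a single control library moves both estimates.

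LOC102724200 was at -2.23 ± 0.43 at the low dose, with 0.387 ± 0.233 CPM against 1.83 ± 0.778 in the controls, and at -1.97 ± 0.41 at the high dose, with 0.463 ± 0.103 CPM. Groups separated downwards in 5.61% of the tested genes at the low dose and in 3.92% at the high dose. With 1 library left out it ran from -2.71 to -1.85 at the low dose and from -2.28 to -1.77 at the high dose. BOLA2B was at -3.05 ± 0.74 and -2.55 ± 0.68, with 1.56 ± 1.42 CPM in the controls. With 1 library left out it ran from -3.60 to -2.10 and from -3.90 to -1.59, nearest to 0 without control 3 in both cases and farthest at the high dose without high-dose library 3. GATD3B was at 0.06 ± 0.18 and -0.31 ± 0.19, and ran from -0.18 (without control 2) to 0.23 at the low dose. No member separated upwards at the low dose, where 5.10% of the tested genes did, or in either direction between the doses, where 5.85% were higher and 6.31% lower at the high dose with no overlap. When the 3 groups are ordered by mean CPM, neighbours in that order were apart in 10.4% of the tested genes and in 2 of the 9 members, U2AF1 (controls below the high dose) and LOC102724200 (controls above the high dose). These estimates helped to choose the genes and have no test here.

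Across all genes, edgeR's quasi-likelihood test called 0 of 12665 (0% called) in the low dose against control, 0 (0%) in the high dose against control and 0 (0%) in the high against the low dose, at a Benjamini-Hochberg adjusted p of 0.05. At an unadjusted p of 0.05 it marked 770, 298 and 714 genes (6.08%, 2.35% and 5.64%), and DESeq2 called 0 in each comparison and marked 573, 173 and 487. DESeq2 gave U2AF1L5 no p-value. When the low counts were not filtered out, edgeR called 6 of 15983 genes at the low dose (0.0375%), of which 4 were members: U2AF1, U2AF1L5, BOLA2B and LOC102724200. At the high dose it called 3 (0.0188%), and all 3 were members: U2AF1L5, BOLA2B and LOC102724200. Between the doses it called 4 (0.0250%), of which CBSL was 1. When each set was replaced by its sum in that same unfiltered fit, the counts became 2, 0 and 3 (0.0125%, 0% and 0.0188%), and no sum was among them. Because the same counts were used to pick the members, these numbers of calls describe how the table behaves without a filter and are not evidence of a change in any member.

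The sums are built from the picked rows, so their folds are descriptions as well. Each is given with a 95% interval computed here from edgeR's fold change, test statistic and degrees of freedom. The spread behind that statistic is drawn in part toward the trend over all genes. The sums varied at 1.26 (TRAPPC10 set) to 13.5 times (U2AF1 set) that trend. The U2AF1 set had a fold of 1.47 at the low dose against control (0.494 to 4.40) and 0.886 at the high dose (0.278 to 2.82). For the CBS set the folds were 1.10 (0.741 to 1.64) and 1.32 (0.896 to 1.96), and for the EIF3C set 1.11 (0.580 to 2.12) and 1.49 (0.795 to 2.78). The intervals of the U2AF1 and EIF3C sets reach past 2-fold in the upward direction at both doses. The TRAPPC10 set was held much closer, at 1.01 (0.906 to 1.13) and 0.983 (0.880 to 1.10), and the GATD3 set at 1.08 (0.888 to 1.30) and 0.983 (0.810 to 1.19).

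Among the sums the BOLA2 set had the folds farthest from 1. It had 1.81 ± 1.32 CPM in the controls, 0.748 ± 0.821 at the low dose and 0.412 ± 0.457 at the high dose (SD, n = 3). Its fold was 0.406 at the low dose (0.168 to 0.981) and 0.229 at the high dose (0.0856 to 0.611). On the log2 scale that is -1.30 and -2.13, and with 1 library left out the values ran from -2.71 (without low-dose library 2) to -0.62 (without control 3) and from -3.56 (without high-dose library 3) to -1.45 (without control 3). Control 1 lay inside the insulin range at both doses, and the set also reached 33 counts in low-dose library 2. The intervals above are not adjusted for the number of genes tested. With the copies summed, the filtered fit called 0 of 12660 genes (0%) at either dose against control.

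**Figure D4:**
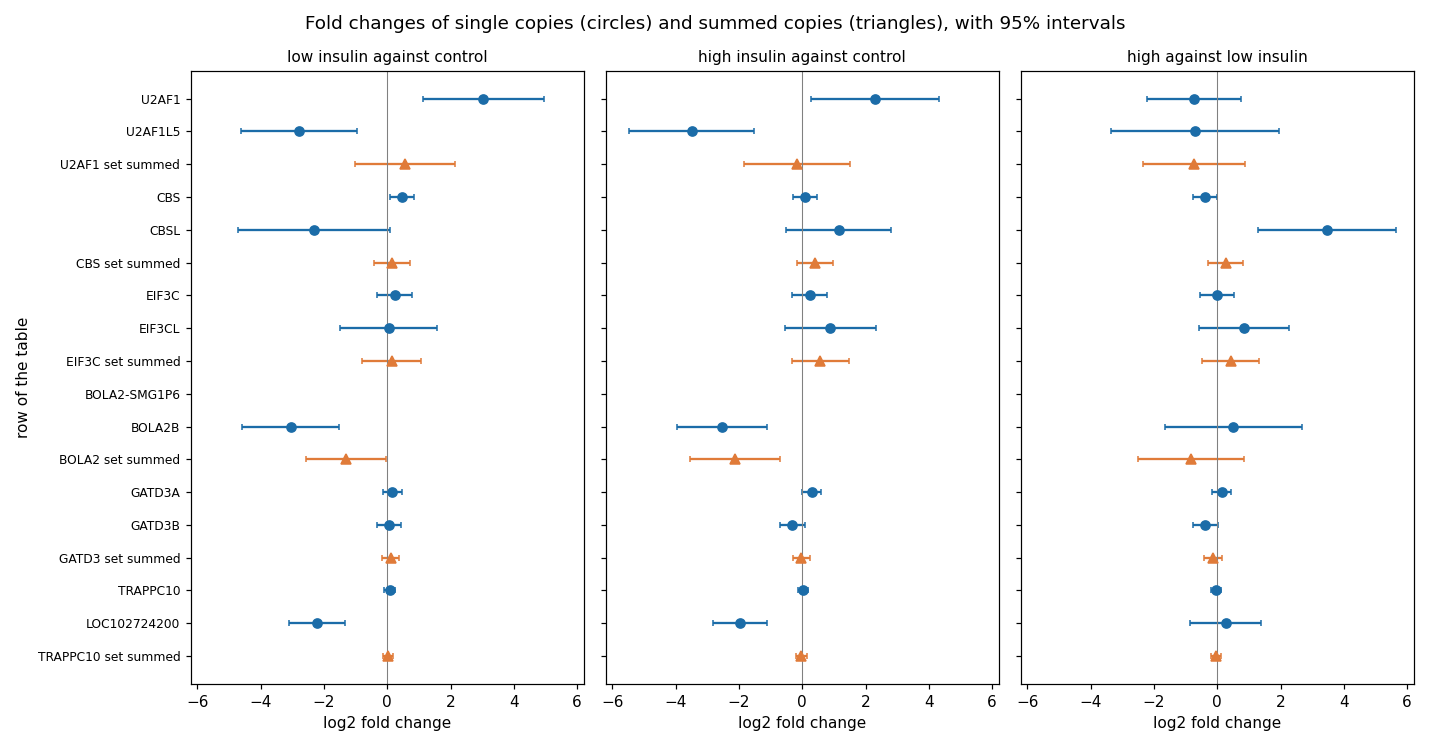
Log2 fold changes with 95% intervals computed from the edgeR fits for each copy (blue circles) and each sum (orange triangles) in 3 comparisons. BOLA2-SMG1P6 did not pass the count filter and has no point. The rows were picked by these counts, so an interval that leaves out 0 is a description and no test of a change. U2AF1 and U2AF1L5 lie on opposite sides of 0 at both doses and their sum spans 0, while TRAPPC10 and its sum lie close to 0.

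The other genes of the same complexes and pathways had no called change. Neither did any other of the 12665 tested genes (0% called in each comparison), so the absence of calls below is not particular to these lists. Of 19 other genes of 3′ splice site recognition, 19 were tested and 0 were called in any comparison, with a median log2 fold change of 0.02 at the low dose and 0.01 at the high dose against 0.0045 and -0.00021 over all tested genes. ZRSR2, a relative of U2AF1 that serves minor introns, was at -0.15 ± 0.10 and -0.18 ± 0.10, and PHF5A, a subunit of SF3b, at 0.12 ± 0.08 and 0.07 ± 0.08. U2AF2, the large subunit that pairs with U2AF1, ranged only from 2441 to 2950 counts over the 9 libraries.

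In the methionine cycle and transsulfuration list, 17 of 18 genes were tested and 0 were called, with medians of -0.0013 at the low dose and 0.0071 at the high dose. MTR, methionine synthase, was at -0.11 ± 0.05 and SLC7A11, the cystine importer subunit, at -0.10 ± 0.05 at the low dose. TST, thiosulfate sulfurtransferase, was at 0.21 ± 0.10 and AHCY, which frees homocysteine, at 0.09 ± 0.05 at the high dose. Of the 23 BolA, glutaredoxin and iron-sulfur genes all 23 were tested and 0 called, with medians of 0.02 and -0.01. CIAO2B, of the cytosolic iron-sulfur targeting complex, was at 0.14 ± 0.05 and 0.10 ± 0.05, IREB2, an iron-regulated RNA-binding protein, at -0.10 ± 0.05 at the low dose, and ISCU, the iron-sulfur scaffold, at -0.11 ± 0.05 at the high dose. Both PARK7 and GATD1, relatives of GATD3A, were tested and not called.

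EIF3C lay below the other eIF3 subunits in counted level and above them in spread, the trait for which it was picked. How reads that fit both copies were treated is not stated, so the counted level may leave such reads out. Whether it did was not tested. The 12 other subunits had mean levels of 21.6 (EIF3M) to 105 FPKM (EIF3D), with a median of 58.3 FPKM, and SDs of log2 CPM of at most 0.084. EIF3A was at 47.9 ± 1.54 FPKM, EIF3B at 59.3 ± 1.29 and EIF3E at 70.5 ± 4.51 (SD over 9 libraries). In between came EIF3G at 92.4, EIF3I at 92.1, EIF3K at 86.9, EIF3L at 57.4, EIF3J at 31.8, EIF3H at 28.5 and EIF3F at 25.5 FPKM. EIF3C and EIF3CL together had 3.82 ± 2.24 FPKM, and their highest library, at 6.85 FPKM, was below the lowest mean among the other subunits. All 12 subunits were tested and 0 were called. At the low dose EIF3E was at -0.11 ± 0.06 and EIF3J at -0.10 ± 0.05, and at the high dose EIF3I was at 0.09 ± 0.05 and EIF3H at 0.08 ± 0.05, on the log2 scale.

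With the same limit on counting, the U2AF1 set had 7.16 ± 8.09 FPKM, from 1.40 to 24.7. U2AF2 was at 40.7 ± 2.75, and the other genes of the set's list had means of 3.30 to 123 FPKM. TRAPPC10 is different: with its copy it had 4.73 ± 0.338 FPKM, among the 15 other TRAPP subunits at 1.18 (TRAPPC9) to 98.9 FPKM (TRAPPC1). TRAPPC2 was at 4.73, TRAPPC2B at 5.10, TRAPPC5 at 4.66, TRAPPC13 at 4.88, TRAPPC12 at 5.29, TRAPPC6B at 5.81, TRAPPC14 at 5.80, TRAPPC8 at 7.48 and TRAPPC11 at 7.71 FPKM, and TRAPPC6A at 9.82, TRAPPC2L at 12.3, TRAPPC4 at 29.9 and TRAPPC3 at 32.0 FPKM. All 15 were tested and 0 called. The nearest to a change were TRAPPC14 at 0.16 ± 0.09 and TRAPPC12 at 0.10 ± 0.06 at the low dose, and TRAPPC12 at 0.09 ± 0.06 and TRAPPC6B at -0.11 ± 0.08 at the high dose.

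**Figure D5:**
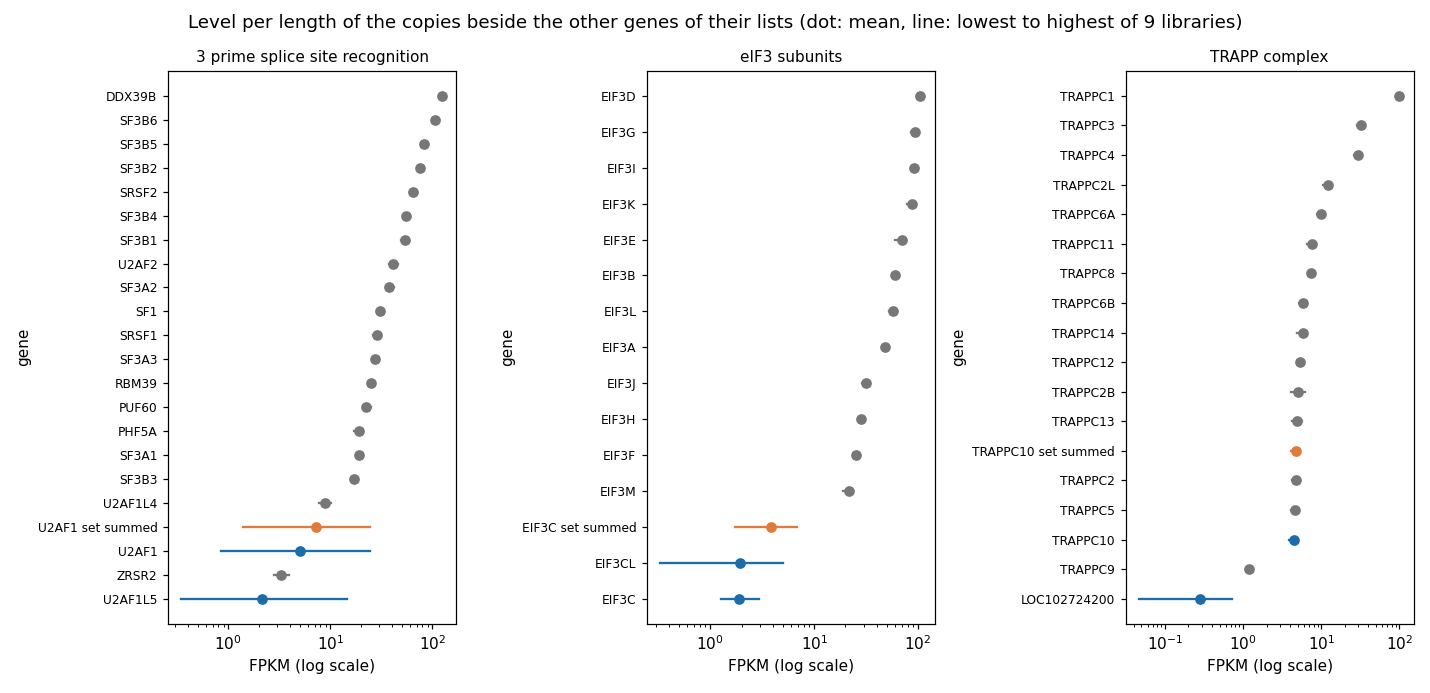
Level per length (FPKM, log scale) of the copies (blue), their sums (orange) and the other genes of 3 lists (grey); dots are means and lines run from the lowest to the highest of 9 libraries. The EIF3C sum, at 3.82 FPKM, lies below all 12 other eIF3 subunits with a wide line, and the TRAPPC10 sum, at 4.73 FPKM, lies among the other TRAPP subunits with a narrow one. The levels of copies and sums may leave out reads that fit both copies.

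Other genes with a near-identical copy give the same measure outside the rows that were picked. In the reference, 215 gene symbols other than the rows of the 6 sets had at least 90% of the 100-base words of their main coding transcript in 1 gene at a separate place. Of these, 50 had a row under that exact symbol and 12 passed the count filter. BOLA2 and FP565260.6, the reference entries matched to BOLA2B and LOC102724200, are among the 215 but not among the 12. GATD3B, which shares 87.8% of its words with GATD3A, would not meet this rule. Their median spread was 0.51, against 0.096 for all tested genes (0.33 against 0.094 from the deposited FPKM), and 7 of the 12 lay above the 95th percentile of 0.38, where 634 of 12665 tested genes (5.01%) lie. They were also counted low, and the part of low counts in their spread was not tested beyond the comparison with the trend, where 5 of 12 exceeded 2 times the trend (4.30% of all tested genes). Among the 12 the widest were VAMP7, RGPD6 and CTAGE4. VAMP7, a vesicle fusion protein whose gene lies in the region shared by the sex chromosomes, had 139 counts in low-dose library 2 and 6 to 19 in the other 8. RGPD6 had 28 and 24 counts in control 3 and high-dose library 3 and 3 to 18 elsewhere, and CTAGE4 had 1 to 12. The narrowest were LIMS4 (14 to 33 counts, SD 0.31), RGPD5 (8 to 17, SD 0.33) and NPIPB3 (39 to 80, SD 0.34).

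A further 14 rows carry 1 of these symbols with the suffix -2, which the table does not explain, and 6 of them passed the count filter. With these the median spread over 18 rows was 0.51, and 11 lay above the 95th percentile. CD99-2, named after its values were seen, had 288, 2356 and 2856 counts in the controls, 500, 111 and 239 at the low dose, and 2830, 81 and 143 at the high dose. Its SD of 1.98 was wider than that of VAMP7 (1.46). SLC25A6-2 was the narrowest of the 6, with an SD of 0.18. In the reference, the symbols of these 6 rows each have matching entries in the region shared by the sex chromosomes. Whether the suffix marks such an entry is not stated.

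For each member the gene outside its own set with the most similar pattern was looked up among the tested genes, as Pearson's r of log2 CPM over the 9 libraries. It was RAB1B for U2AF1 (r = 0.948), RASA1 for U2AF1L5 (0.919), CDC14A for CBS (0.933), GARNL3 for CBSL (0.966), RANBP9 for EIF3C (0.939), TRAPPC6A for EIF3CL (0.941), ZNF595 for BOLA2B (0.957), BTN2A1 for GATD3B (0.938) and DDHD2 for LOC102724200 (0.952). Each is the highest of 12663 values (12664 for BOLA2B) over 9 points that share libraries and group structure. Most of these genes moved far less than the members: RAB1B ran from 3802 to 4514 counts while U2AF1 ran from 19 to 540. For CBS the contrast was smaller, with CDC14A at 78 to 125 counts and CBS at 202 to 431.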

How the data were processed

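RNA from 9 KGN libraries was sequenced after preparation with a VAHTS Universal V6 kit, per the labels' protocols. The authors deposited raw read counts per gene symbol and FPKM values for the same rows, per the file headers. The FPKM values that the authors deposited were the same counts rescaled: the gene length they imply was whole in 11053 of 11053 genes (those never under 50 counts) within a relative tolerance of 1e-06. Trimmomatic, HTSeq and DESeq and the build hg38 are named, without versions, in the submitters' processing notes. The aligner and the treatment of reads that match several places are not stated in those notes or the labels, so a count on 1 copy may hold reads of the other.

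Counts were fitted with edgeR 4.0.16 (R 4.3.3, TMM scaling, quasi-likelihood test, all 9 libraries in 1 fit by group). Its default filter (minimum count 10, minimum total 15) kept 12665 of 15983 genes. P-values were adjusted by Benjamini-Hochberg over all genes tested and called at 0.05. The fit was repeated with the rows of each set replaced by their sum (12660 genes), with DESeq2 1.42.0, and with other scalings, filters and libraries left out. In counts simulated with the trended spread, edgeR recovered known changes at the low dose against control. The members varied more than that trend, so the simulation does not cover their rows. CPM values used TMM-scaled totals, and log2 CPM a prior count of 2. Shares have exact Clopper-Pearson 95% intervals. Library totals of 18965722 to 20446405 set a floor of 3 counts at 0.158 CPM.

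Transcripts were those of GENCODE 29, and LOC102724200 was matched to it by position, through RefSeq. Near-identical genes were found by shared words of 100 bases, between main coding transcripts and 1 partner that does not overlap them. The members and the gene lists were chosen with earlier results of these data known. BOLA2 was not among the rows analysed here, so BOLA2B was summed with BOLA2-SMG1P6; that choice, the 1.5-fold measure of raised libraries and the count with suffixed rows were made after seeing the data. Named genes were all members and partners, every eIF3 and TRAPP subunit by level, in each list the 2 genes of smallest p in each comparison with control, the 1 most similar gene for each member, and the 3 widest and 3 narrowest other near-identical genes.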

Additional observations from a re-analysis of the deposited data

How the results depend on the processing

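RLE factors, DESeq2, the fit without the count filter and the replicate block did not turn the direction of any summed fold change; leaving out 1 library did so 19 times. The low dose against control then ranged from -1.74 to 2.52 (log2) for the U2AF1 set, -0.28 to 0.52 for CBS, -0.54 to 0.98 for EIF3C, -2.71 to -0.62 for BOLA2, -0.066 to 0.24 for GATD3 and -0.039 to 0.10 for TRAPPC10. The high dose against control ranged from -0.68 to 1.79 for the U2AF1 set, -3.56 to -1.45 for BOLA2, -0.19 to 0.11 for GATD3 and -0.082 to 0.017 for TRAPPC10, and the high against the low dose from -1.24 to 1.57 for U2AF1, -2.26 to 0.59 for BOLA2 and -0.13 to 0.0070 for TRAPPC10. The libraries behind the U2AF1 values were low-dose 1 (-1.74 at the low dose and 1.57 between the doses) and control 2 (1.79).

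Without the count filter edgeR called 6, 3 and 4 genes in place of 0; the cause was not tested. With 1 library left out it called 0 to 1 gene at the low dose against control and 0 to 2 between the doses: LOC107987373 without low-dose library 3 in both, and NDRG1 and TRIM22 without low-dose library 1 between the doses, none a member. Spreads with 1 library left out ran from 0.82 to 1.83 for U2AF1, 0.50 to 1.80 for U2AF1L5, 0.11 to 0.36 for CBS, 0.71 to 1.18 for BOLA2-SMG1P6, 0.23 to 0.40 for GATD3B and 0.073 to 0.12 for the TRAPPC10 set, the lowest in turn without low-dose 1, control 2, low-dose 2, low-dose 2, control 2 and low-dose 3. Over all libraries without removing group means, LOC102724200 had 1.08. From the deposited FPKM (pseudocount 0.1) the median spread of the other near-identical genes was 0.33, against 0.094 for all tested genes. The highest U2AF1L5 share ran from 52.7 to 94.8% (lowest without control 2) and its lowest from 2.0 to 3.92%; the highest EIF3CL share ran from 63.1 to 72.7%, the highest BOLA2B share from 77.1 to 96.9% and its lowest from 18.2 to 40.0%.

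The groups share replicate numbers, but the labels give no pairing, and deviations of libraries with the same number correlated at -0.012 to 0.161 over 9 pairs (median 0.022), so the numbers were not taken to pair the libraries. With the replicate number as a block, edgeR called 0 genes in each comparison, and the U2AF1 set was at 0.35 at the low dose and -0.26 at the high dose against control.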
